A study of Arabidopsis thaliana with 12 samples.

Results

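The genes described here are the photosynthesis genes that the chloroplast itself carries, without psbA. They were taken from the deposited gene table by their plastid locus tags: protein-coding rows whose symbol begins with psa, psb, pet, atp or ndh, together with rbcL, and with psbA left out. The rule found 44 rows among the 38338 rows of the table, out of 83 protein-coding rows of the plastid genome. These 44 rows carry 43 symbols, because ndhB lies in the inverted repeat of the plastid genome and is present as a pair of copies. They encode parts of 6 assemblies: 14 rows belong to photosystem II, 5 to photosystem I, 6 to the cytochrome b6f complex, 6 to the ATP synthase, 12 to the NDH complex and 1 to Rubisco. All 44 passed the filter on low counts.

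Photosystem II splits water and passes electrons to the cytochrome b6f complex, which hands them on to photosystem I, and the proton gradient built on the way drives the ATP synthase. The NDH complex returns electrons from photosystem I to the chain in cyclic flow, and Rubisco fixes carbon dioxide. Each of these assemblies mixes subunits encoded in the plastid with subunits encoded in the nucleus. Plastid genes are transcribed largely in units of several genes, and the long primary RNAs are cut, trimmed and spliced, so that neighbouring genes can share an RNA while ending up with unequal amounts of mature transcript.

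Leaf RNA of Arabidopsis thaliana was sequenced from chlorella-1, labelled a knockout of the gene for the long noncoding RNA CHLORELLA, and from the wild type Col, each at 26 d and at 14 d of age. There were 3 libraries in each of the 4 groups, made with a strand-keeping total RNA kit that removes ribosomal RNA. The labels name no treatment, do not say how many plants were pooled, and give no independent line beside chlorella-1. The table names no CHLORELLA gene, so the genotypes are as labelled. Nothing in the labels says that the 3 libraries of a group came from separately grown plants, so p-values measure the spread between these libraries, which may be technical.

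Libraries held 45218319 to 70510745 reads in the table. The chlorella-1 libraries at 26 d were the least alike (Spearman's rho of 0.929 to 0.971 across genes, against 0.969 to 0.982 in Col at 26 d). The tissue label was checked against 6 genes of mesophyll cells, the green cells of the leaf, one of which also stands in the list of Rubisco small subunits used further on. None of the 6 was at 0 reads, and their summed level was 386 to 970 CPM (counts per 1e6 reads, with library sizes adjusted by edgeR's TMM factors) in chlorella-1 at 26 d, against 4222 to 7803 CPM in Col at 26 d. Markers of other cells also differed at 26 d: 3 pollen genes summed to 12.6 to 52.9 CPM in chlorella-1, against 0 to 0.255 CPM in Col, where 1 of them had no read. Guard cell markers (3 genes) summed to 35.1 to 40.3 CPM in chlorella-1, against 5.78 to 8.95 CPM in Col. Floral organ markers (4 genes) summed to 1.57 to 2.58 CPM in chlorella-1, against 0.642 to 1.20 CPM in Col, where 1 had no read. Phloem markers (4 genes) summed to 208 to 350 CPM in chlorella-1, against 119 to 146 CPM in Col. Root markers (3 genes) summed to at most 0.0686 CPM in chlorella-1 and at most 0.0657 CPM in Col, with 2 of them at 0 reads in both. The part of these cell types in the results below was not tested. In bulk leaf RNA, fewer cells of a type and less RNA per cell cannot be told apart.

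In 26 d chlorella-1 leaves, the plastid-encoded photosynthesis transcripts made up a small share of the reads. The 44 genes took 3.88%, 2.72% and 3.82% of all reads in chlorella-1 at 26 d, against 13.7%, 14.6% and 12.9% in Col at 26 d. At 14 d they took 21.9%, 22.0% and 22.5% in chlorella-1, against 26.9%, 26.1% and 24.0% in Col. The groups did not overlap at either age, and the 26 d chlorella-1 libraries lay far below the rest. The gene left out by the rule, psbA, codes for D1, a reaction centre protein of photosystem II. It took 53.8%, 57.2% and 45.1% of the reads in chlorella-1 at 26 d, against 56.9%, 56.6% and 58.7% in Col. Its log2 fold change between the genotypes at 26 d was -0.04 ± 0.30 (edgeR adjusted p = 0.915).

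The make-up of this pool also differed. Rubisco's rbcL accounted for 26.2%, 23.7% and 20.6% of the reads of the 44 genes in chlorella-1 at 26 d, against 42.9%, 52.4% and 46.8% in Col at 26 d. At 14 d the share of rbcL was 53.7% to 57.9% in chlorella-1 and 57.2% to 62.8% in Col. Photosystem II genes accounted for 32.6%, 37.5% and 41.1% of the pool in chlorella-1 at 26 d, against 27.2%, 20.2% and 23.3% in Col. In 26 d chlorella-1 leaves photosystem II thus held more of the pool than rbcL in every library, and in the other 9 libraries rbcL held more. The cytochrome b6f genes took 14.3% to 18.5% of the pool in chlorella-1 at 26 d and 6.94% to 8.33% in Col at 26 d.

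The first comparison asked how chlorella-1 differed from Col at 26 d. Of the 44 genes, 42 were lower in chlorella-1 and none was higher, in edgeR as in DESeq2 and limma voom. Across all 20398 genes tested, edgeR called 31.8% lower, and it called 6429 genes higher. DESeq2 called 6187 of these genes lower and 7106 higher, and limma voom 6724 lower and 6496 higher. The members' median log2 fold change was -1.74, and that of all genes was -0.11. The fall was not particular to them: of the 38 other plastid protein-coding genes, 37 were lower, with a median of -1.64. The groups did not overlap for 43 of the 44, psbN being the exception, with chlorella-1 lower in all 43; across all genes tested 65.5% did not overlap, 33.3% with chlorella-1 lower. The other gene that did not pass was psbM. These directions are relative to the whole transcriptome. When library size was replaced by the reads of the other plastid protein-coding genes, which moved the median of all genes up by 1.25 on the log2 scale, 22 members were called lower, against 6.26% of all genes, and petB, petD and psbM higher, against 58.2%. On that scale 9 members had a log2 fold change above 0.

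**Figure D1:**
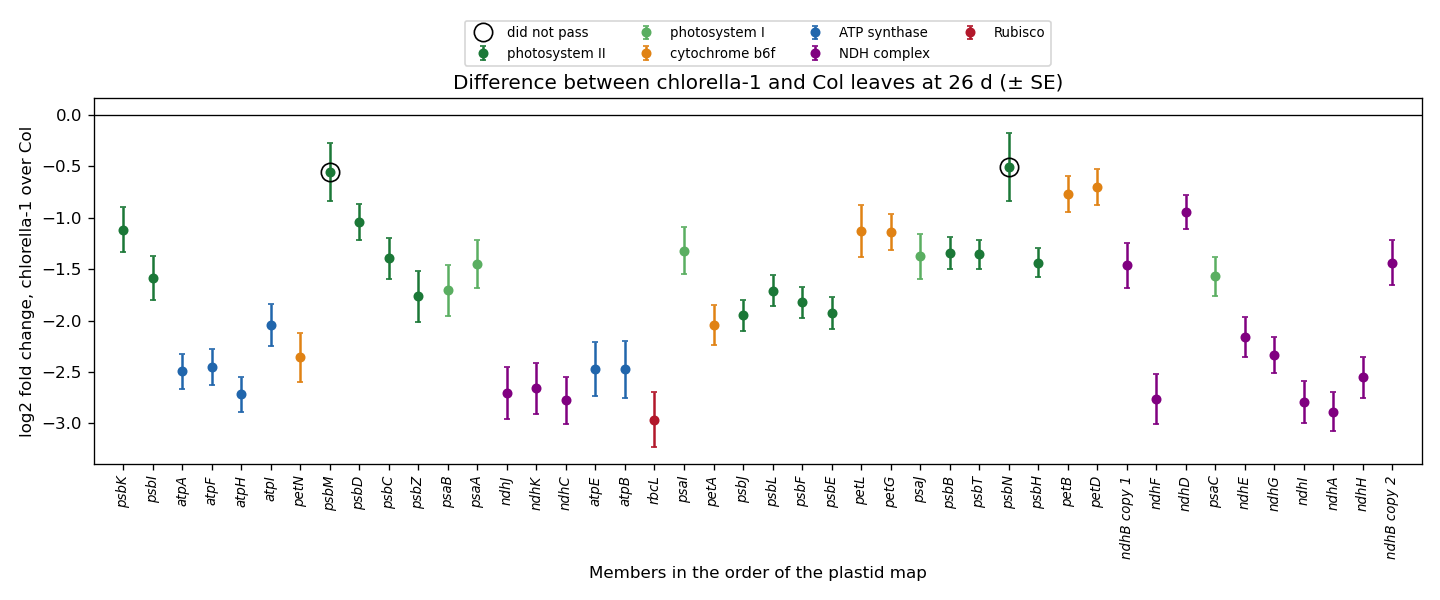
Log2 fold change of chlorella-1 over Col at 26 d (vertical axis, ± SE) for the 44 genes in the order of the plastid map (horizontal axis, not to scale), coloured by complex. All points lie below 0, from -2.96 for rbcL to -0.51 for psbN, and the 2 circled genes did not pass; scaled on the other plastid genes, 9 points would lie above 0, among them petB, petD and psbM.

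The loss was uneven between the complexes. The median log2 fold change at 26 d was -2.61 for the NDH complex and -2.47 for the ATP synthase, and rbcL alone stood at -2.96. It was -1.45 for photosystem I, -1.42 for photosystem II and -1.13 for the cytochrome b6f complex. In terms of fold, the members ran from 7.80-fold lower for rbcL to 1.63-fold lower for petD among those that passed.

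Rubisco's large subunit, the catalytic subunit of the enzyme, is encoded by rbcL. In chlorella-1 at 26 d, rbcL was at 9636, 8244 and 6103 CPM, against 52766, 75880 and 58487 CPM in Col at 26 d. At 14 d it was at 136341, 124299 and 139819 CPM in chlorella-1, against 164156, 161836 and 135098 CPM in Col. The genotypes overlapped at 14 d and were far apart at 26 d. Its log2 fold change of -2.96 ± 0.27 at 26 d was the lowest of all members (edgeR adjusted p = 4.08e-06).

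All 6 plastid genes of the ATP synthase fell in chlorella-1 at 26 d, within a narrow range. This enzyme has a membrane part (atpF, atpH and atpI) and a catalytic head (atpA, atpB and atpE). The gene for the subunit of the rotating ring, atpH, was at 179, 163 and 168 CPM in chlorella-1 at 26 d, against 918, 1299 and 1142 CPM in Col, and at 2157, 2183 and 2239 CPM in chlorella-1 at 14 d, against 2324, 2533 and 2526 CPM in Col. The groups did not overlap at either age, and the gap was wide at 26 d only. At 26 d the log2 fold change of atpH was -2.72 ± 0.17 (edgeR adjusted p = 4.85e-07). The least lowered gene, atpI, was at 185, 112 and 172 CPM in chlorella-1 at 26 d, against 546, 729 and 657 CPM in Col (-2.04 ± 0.20, edgeR adjusted p = 7.91e-06). The other 4 genes lay between these: atpA at -2.50, atpB at -2.48, atpE at -2.47 and atpF at -2.45. The values of atpB and atpE are not fully separate, because their coding regions overlap by 4 bases; the shared bases are in capitals in this stretch of the minus strand (plastid genome of TAIR10.1, Pltd:52647-52676).
atpB end and atpE start: gtaaattgaagaaATGAccttaaatctttg

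The NDH complex, which resembles respiratory complex I, had the genes with the largest losses after rbcL and also one of the smallest. All 12 rows were lower in chlorella-1 at 26 d. The membrane subunit gene ndhA was at 117, 135 and 112 CPM in chlorella-1 at 26 d, against 688, 1070 and 933 CPM in Col (log2 fold change -2.89 ± 0.19, edgeR adjusted p = 6.44e-07). At 14 d ndhA was at 1705, 1686 and 1801 CPM in chlorella-1, against 1536, 1717 and 1634 CPM in Col, with overlap. The NDH gene with the most reads per kb over all libraries, ndhE, was at 61.4, 69.3 and 82.4 CPM in chlorella-1 at 26 d, against 243, 361 and 347 CPM in Col (-2.16 ± 0.19, edgeR adjusted p = 3.83e-06). A gene of the membrane arm, ndhD, was at 556, 663 and 600 CPM in chlorella-1 at 26 d, against 954, 1309 and 1244 CPM in Col. Its groups did not overlap, and its log2 fold change was -0.95 ± 0.17 (edgeR adjusted p = 0.000495), the smallest loss of the complex; scaled on the other plastid genes the value turned to 0.34 and did not pass.

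Of the others, ndhI, ndhC, ndhF, ndhJ and ndhK lay between -2.79 and -2.66, ndhH at -2.55, ndhG at -2.33, and the pair of ndhB rows at -1.46 and -1.44. The ndhB copies had similar counts in every library (for example 93.3 and 92.6 CPM in the first chlorella-1 library at 26 d), and reads from one copy cannot be told from reads of the other, so they stand for 1 gene. The row of ndhF overlaps ycf1 on the other strand. ndhD is also the one member whose coding sequence does not open with ATG in the genome; in plants its first codon is made into a start codon by RNA editing. Its first 30 coding bases are set beside those of psaC, the gene just before it in the same unit, with the first codon in capitals (minus strand, Pltd:117138-117167 and Pltd:117534-117563, TAIR10.1).
ndhD start: ACGaatgattttccttggttaacaataatt
psaC start: ATGtcacattcagtaaaaatttatgatact

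Photosystem I has its reaction centre pair, psaA and psaB, an iron-sulfur subunit, psaC, and the small psaI and psaJ in the plastid. All 5 fell in chlorella-1 at 26 d, over a range of only 0.38 on the log2 scale. The most lowered, psaB, which also had the most reads per kb of the complex over all libraries, was at 3070, 1759 and 1732 CPM in chlorella-1 at 26 d, against 8176, 6893 and 6337 CPM in Col (-1.71 ± 0.25, edgeR adjusted p = 0.000114). At 14 d psaB was at 17147, 15275 and 14601 CPM in chlorella-1, against 15369, 15177 and 13757 CPM in Col, with overlap. The least lowered, psaI, was at 84.9, 80.4 and 118 CPM in chlorella-1 at 26 d, against 187, 265 and 258 CPM in Col (-1.32 ± 0.23, edgeR adjusted p = 0.000414).

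In the cytochrome b6f complex, all 6 genes were lower in chlorella-1 at 26 d, and they spread from strong to slight. The gene of the small subunit petN was at 56.0, 38.4 and 60.6 CPM in chlorella-1 at 26 d, against 210, 275 and 309 CPM in Col (-2.36 ± 0.24, edgeR adjusted p = 8.3e-06). petA, which encodes cytochrome f, stood at -2.04, and the small petG and petL at -1.14 and -1.13. The gene of cytochrome b6, petB, was at 3161, 3874 and 2858 CPM in chlorella-1 at 26 d, against 5332, 5627 and 5924 CPM in Col (-0.77 ± 0.17, edgeR adjusted p = 0.00237). Subunit IV is encoded by petD, which was at 1729, 2287 and 1536 CPM in chlorella-1 at 26 d, against 2961, 2973 and 3101 CPM in Col (-0.70 ± 0.18, edgeR adjusted p = 0.00484). They were 1.71-fold and 1.63-fold lower, and both turned to higher in chlorella-1 when scaled on the other plastid genes. A fit of the 26 d libraries alone left petD at an adjusted p of 0.055, within a range of 0.000238 to 0.055 over its alternatives.

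For photosystem II, 12 of the 14 genes were lower in chlorella-1 at 26 d. The reaction centre gene psbD (the D2 protein) stood at -1.04 and the antenna genes psbC and psbB at -1.40 and -1.34. Cytochrome b559 is encoded by psbE and psbF. psbE, the photosystem II gene with the most reads per kb over all libraries, was at 394, 394 and 356 CPM in chlorella-1 at 26 d, against 1299, 1601 and 1442 CPM in Col (-1.92 ± 0.16, edgeR adjusted p = 1.95e-06). Its neighbour psbJ, for a small subunit, was the most lowered: 125, 133 and 131 CPM in chlorella-1 at 26 d, against 428, 536 and 539 CPM in Col (-1.95 ± 0.15, edgeR adjusted p = 1.65e-06). The small subunit genes psbZ, psbL, psbI, psbH, psbT and psbK lay between -1.76 and -1.11. psbD and psbC share 53 bases, in capitals in this stretch of the plus strand (Pltd:33708-33784, TAIR10.1), so their counts are not fully separate.
psbD end and psbC start: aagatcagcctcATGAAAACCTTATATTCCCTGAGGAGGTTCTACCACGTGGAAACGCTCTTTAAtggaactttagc

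The 2 genes that did not pass at 26 d were both short. psbM, for a small subunit, was at 51.6, 61.6 and 66.2 CPM in chlorella-1 at 26 d, against 71.3, 102 and 90.0 CPM in Col. The groups did not overlap, but the log2 fold change of -0.55 ± 0.28 had an edgeR adjusted p of 0.106. psbN encodes a protein needed to assemble the photosystem II reaction centre in tobacco and is not itself a lasting subunit. It was at 356, 762 and 440 CPM in chlorella-1 at 26 d, against 688, 678 and 851 CPM in Col, and at 590, 411 and 473 CPM in chlorella-1 at 14 d, against 246, 309 and 555 CPM in Col. The groups overlapped at both ages, and its 26 d log2 fold change was -0.51 ± 0.33 (edgeR adjusted p = 0.196). One library decided this: without chlorella-1 replicate 2 at 26 d it was -0.90 (edgeR adjusted p = 0.0259, within a range of 0.0259 to 0.567 with each library left out).

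psbN is shown in full because it lies on the strand opposite to its neighbours, inside the psbB unit. The gene has 132 coding bases on the minus strand (Pltd:74249-74380, TAIR10.1), 65 bases from the end of psbT and 104 bases from the start of psbH, both on the plus strand. The strand setting of the authors' counting is not given in the sources used here, so reads of psbN and reads of a psbB-unit RNA that runs through this stretch may not be told apart. The start codon is in capitals.
psbN: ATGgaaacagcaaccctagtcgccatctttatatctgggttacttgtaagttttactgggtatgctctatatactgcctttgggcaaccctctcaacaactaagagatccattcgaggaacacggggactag

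**Figure D2:**
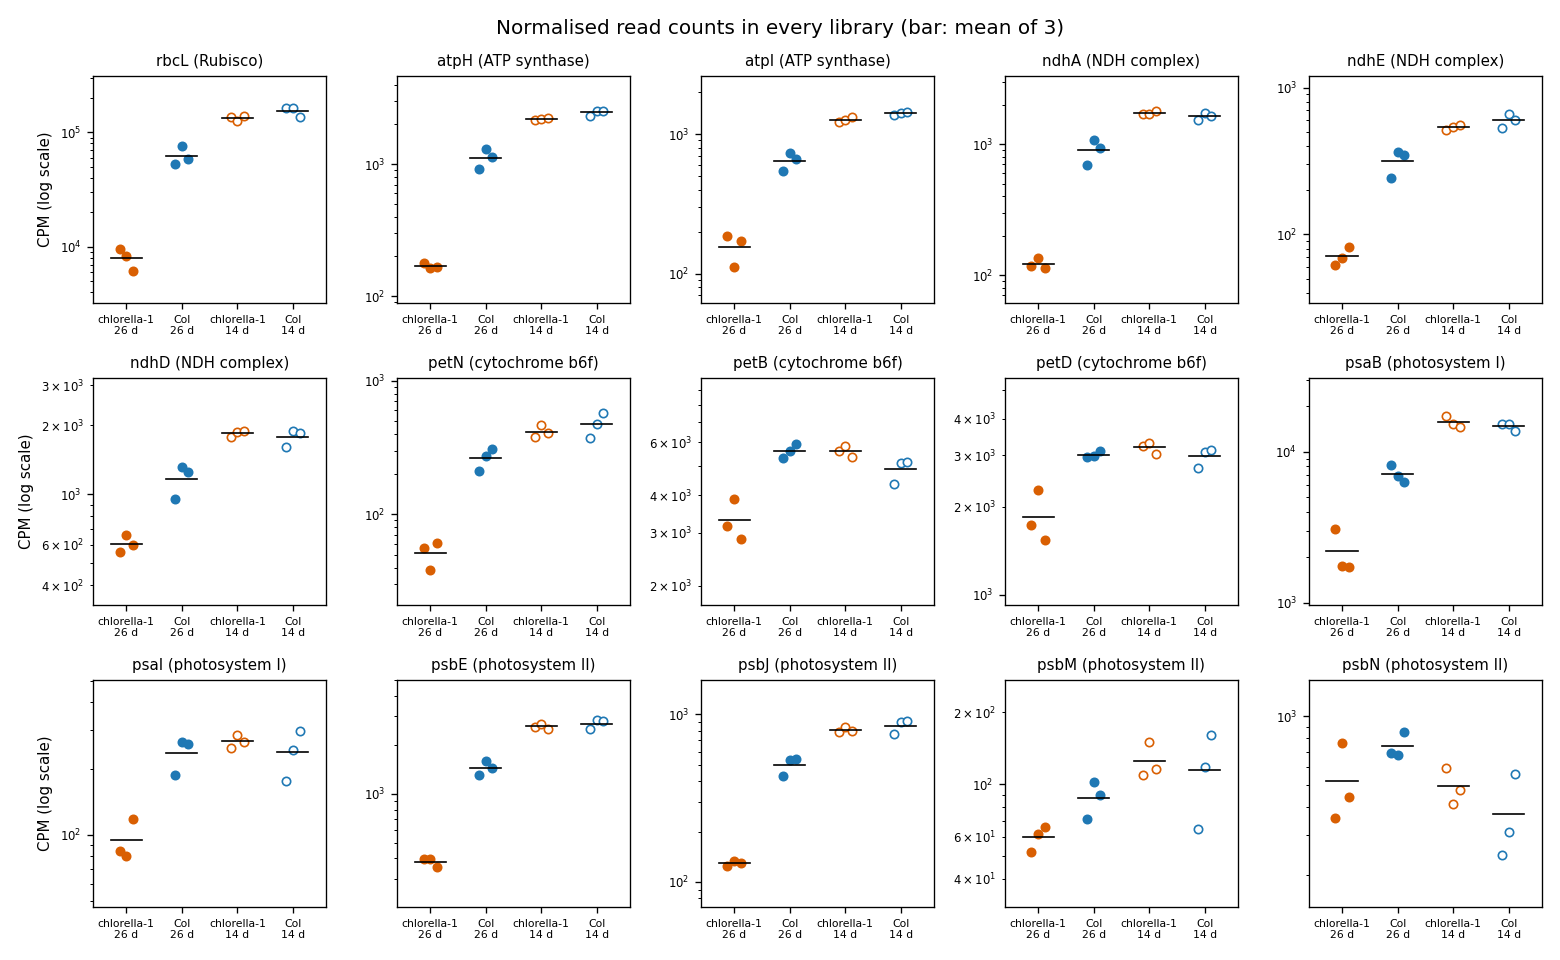
Normalised read counts (CPM, logarithmic vertical axes) of 15 genes in every library, with groups in the order chlorella-1 26 d, Col 26 d, chlorella-1 14 d and Col 14 d. Points are libraries (filled at 26 d, open at 14 d; orange for chlorella-1, blue for Col) and bars are means of 3. The 26 d chlorella-1 libraries lie below all others in every panel except psbN, where they overlap with the other groups, and psbM, where they overlap with Col at 14 d.

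To set the complexes against each other, the same model was fitted with library size replaced by the summed reads of the 14 photosystem II genes, so that a log2 fold change of 0 means that a gene kept step with photosystem II. On this scale most genes of the genome are higher in 26 d chlorella-1 leaves, 59.3% being called higher and 5.52% lower. Among the 30 members outside photosystem II, 18 were lower relative to photosystem II at 26 d and 2 were higher. The ATP synthase genes were lower in all 6 cases, from -1.43 for atpH to -0.75 for atpI. In the NDH complex 9 of 12 rows were lower, down to -1.61 for ndhA, and the rows that did not pass were ndhD at 0.33 and the ndhB pair at -0.19 and -0.16. rbcL was at -1.68 ± 0.27 (edgeR adjusted p = 0.000136).

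Photosystem I genes could not be told from photosystem II on this scale: none of the 5 passed in edgeR at 26 d, none had an unadjusted p under 0.05, and their log2 fold changes ran from -0.39 ± 0.25 for psaB to -0.04 ± 0.24 for psaI. The cytochrome b6f complex was split. petN (-1.07) and petA (-0.75) were lower relative to photosystem II, while petD (0.58 ± 0.17, edgeR adjusted p = 0.0102) and petB (0.52 ± 0.17, edgeR adjusted p = 0.02) were higher. Without Col replicate 1 at 26 d, petB was at 0.42 and an adjusted p of 0.0557, and in a fit of the 26 d libraries alone neither petB nor petD passed. Their adjusted p ranged from 0.0113 to 0.104 for petB and from 0.00523 to 0.0652 for petD over the alternatives.

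The same comparison was made on summed reads. ATP synthase reads amounted to 13.2%, 8.24% and 10.2% of the photosystem II reads in chlorella-1 at 26 d, against 18.1%, 28.3% and 25.0% in Col at 26 d. NDH reads amounted to 11.8%, 11.2% and 11.2% in chlorella-1 at 26 d, against 13.2%, 21.4% and 20.2% in Col. rbcL reads amounted to 80.3%, 63.0% and 50.0% in chlorella-1 at 26 d, against 158%, 260% and 201% in Col. For these 3 the genotypes did not overlap at 26 d. Photosystem I reads amounted to 57.4%, 34.6% and 33.2% in chlorella-1 at 26 d, against 50.8%, 51.4% and 47.4% in Col, so that 1 chlorella-1 library lay above all 3 Col libraries and the other 2 lay below them. Cytochrome b6f reads amounted to 43.8%, 49.2% and 38.7% in chlorella-1 at 26 d, against 27.9%, 34.3% and 35.7% in Col. That last difference, 0.43 on the log2 scale, shrank to 0.041 when genes were weighted equally, both the 6 of cytochrome b6f and those of photosystem II. By reads, petB and petD hold most of the cytochrome b6f sum.

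**Figure D3:**
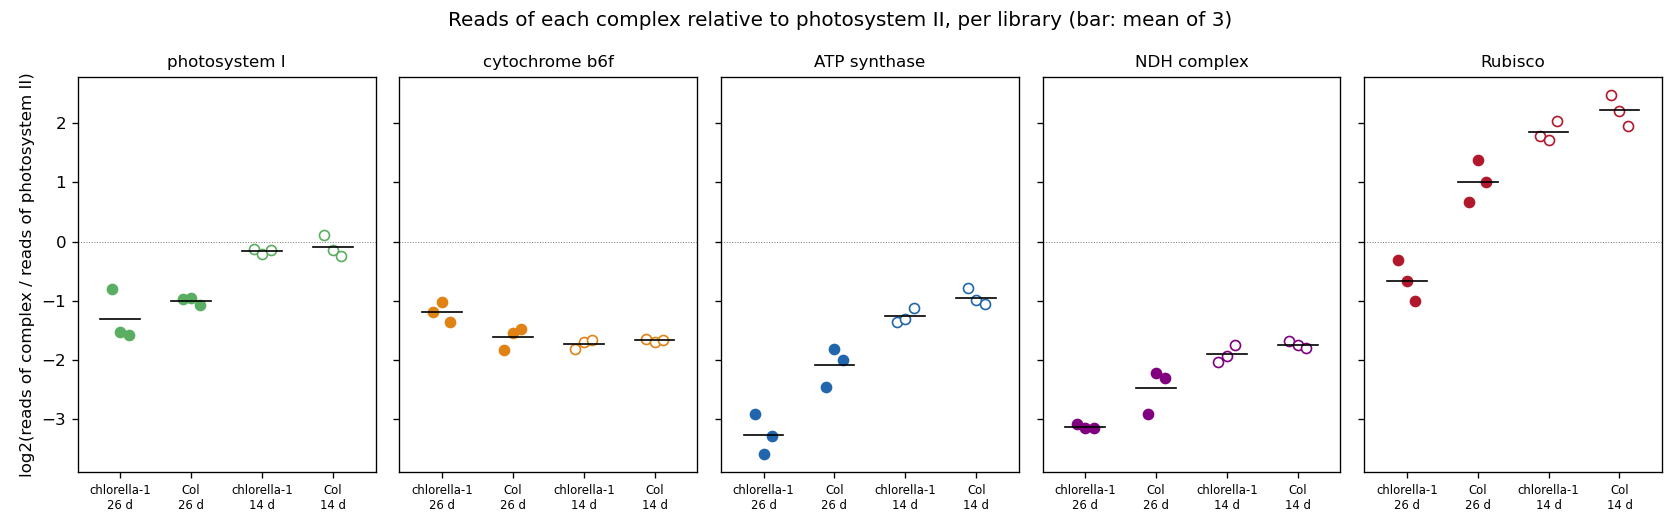
Log2 ratio of the summed reads of each complex to those of photosystem II (vertical axis), per library, in chlorella-1 26 d, Col 26 d, chlorella-1 14 d and Col 14 d; bars are means of 3, filled points are 26 d and open points 14 d. At 26 d the chlorella-1 libraries lie below Col for the ATP synthase, the NDH complex and Rubisco, above Col for cytochrome b6f, and on both sides of Col for photosystem I.

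Many of these genes share a transcription unit with neighbours. Units were taken from textbook knowledge after the values had been seen, so their values are given as a description. At 26 d the range within a unit of more than 1 gene ran from 0.0021 for atpB and atpE to 1.94 along the ndhH unit on the log2 scale. The ndhC-ndhK-ndhJ genes lay between -2.78 and -2.66, atpB and atpE between -2.48 and -2.47, and psbE, psbF, psbL and psbJ between -1.95 and -1.71. In the psaI-petA unit, whose members serve different complexes, psaI stood at -1.32 and petA at -2.04.

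Along the ndhH unit, which runs from ndhH through ndhA, ndhI, ndhG, ndhE and psaC to ndhD, the loss in 26 d chlorella-1 leaves was smaller toward the end. The log2 fold changes of chlorella-1 over Col were -2.55 for ndhH, -2.89 for ndhA, -2.79 for ndhI, -2.33 for ndhG, -2.16 for ndhE, -1.57 for psaC and -0.95 for ndhD, with SE between 0.17 and 0.21. The psbB unit showed a step: psbB, psbT and psbH lay at -1.34, -1.36 and -1.44, and petB and petD, the next genes on the same strand, at -0.77 and -0.70. Relative to photosystem II, psbB, psbT and psbH lay between -0.14 and -0.05 and did not pass, though these genes are part of the sum they were set against, while petB and petD were higher as given above.

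**Figure D4:**
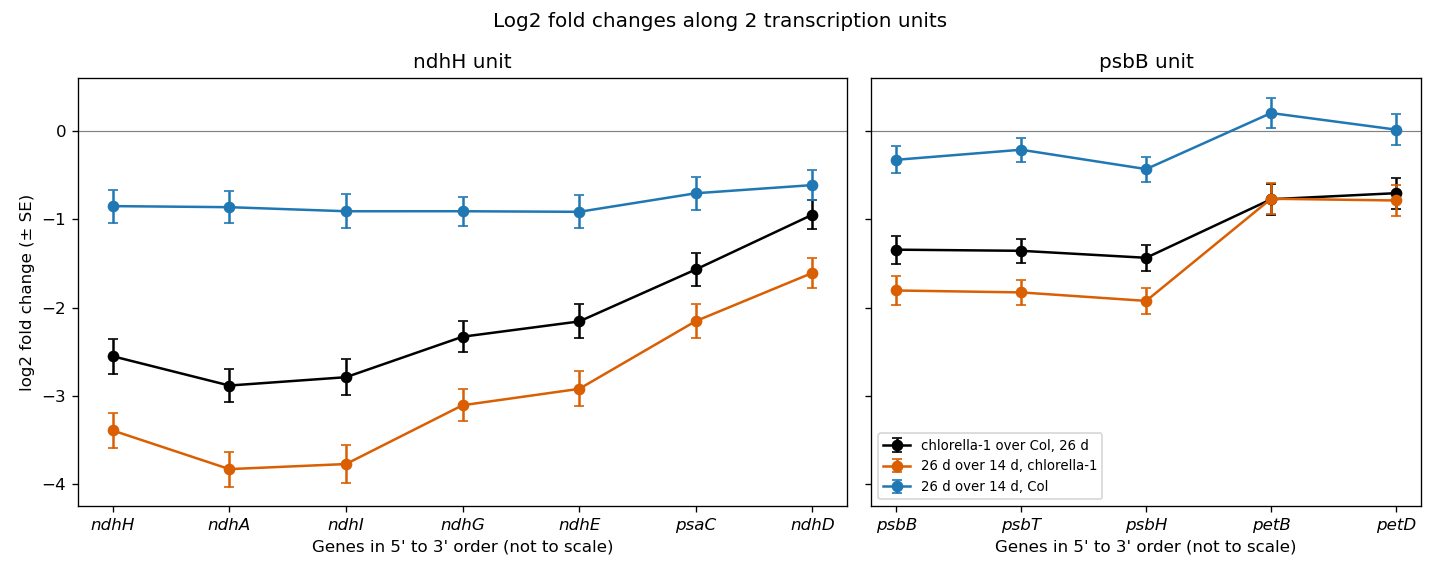
Log2 fold change (± SE, vertical axes) of each gene along the ndhH unit (left) and the psbB unit (right), in 5′ to 3′ order and not to scale, for chlorella-1 over Col at 26 d (black), 26 d over 14 d in chlorella-1 (orange) and 26 d over 14 d in Col (blue). In the ndhH unit the black values run from -2.55 at ndhH to -0.95 at ndhD, while in Col the age changes lie between -0.91 and -0.61; scaled on the other plastid genes, ndhD, petB and petD turn to above 0 in black, these and psaC, psbB, psbT and psbH in orange, and every gene of both panels lies above 0 in blue.

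Coding length was also compared. The 12 members with a coding length under 150 bases had a median log2 fold change of -1.37 at 26 d (from -2.36 to -0.51), and the 32 longer ones had a median of -2.04 (from -2.96 to -0.70). Across the 44 rows, which share libraries and units, Spearman's rho between coding length and log2 fold change was -0.27.

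At 14 d no difference between the genotypes was called in these genes. None of the 44 passed in edgeR, none had an unadjusted p under 0.05, and DESeq2 and limma voom called none either, with 2 under an unadjusted 0.05 in DESeq2. Across all genes 0.162% were called in either direction, 24 higher and 9 lower. That share depended on the fit: it was 2.07% in DESeq2, 0.240% in limma voom and 2.77% in edgeR without the 26 d chlorella-1 libraries, a fit added after seeing the data. The members' log2 fold changes ran from -0.21 for atpE to 0.41 for psbN, with a median of 0.03, and the groups did not overlap for 14 of the 44, against 30.9% of all genes. For 9 of the 44 the groups did not overlap and chlorella-1 was lower, against 15.8% of all genes. All 6 ATP synthase genes lay slightly below 0 (-0.21 to -0.11), and 10 of the 14 photosystem II genes above, but scaled on the other plastid genes all 44 lay above 0 and none passed in edgeR. Relative to photosystem II none of the 30 other members passed or had an unadjusted p under 0.05, against 0.0686% of all genes called, and ATP synthase reads amounted to 38.9%, 40.5% and 46.1% of photosystem II reads in chlorella-1, against 58.1%, 50.1% and 47.8% in Col, without overlap. A fit of the 14 d libraries alone called 6.40% of all genes higher and 8.19% lower, and among the members 1 higher and none lower. On the photosystem II scale that fit called 1.97% of all genes higher and 11.2% lower, and among the 30 members 1 lower.

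With age, Col leaves lost part of these transcripts. Between 26 d and 14 d in Col, 32 of the 44 genes were lower at 26 d, against 20.2% of all genes, 1 was higher, against 19.3%, and 11 did not pass. The median was -0.84, and that of all genes was 0.01. Of the 38 other plastid protein-coding genes, 36 were lower, with a median of -1.23. All 6 ATP synthase genes (median -1.27), all 12 NDH rows (-0.88) and rbcL (-1.30 ± 0.25, edgeR adjusted p = 0.00198) fell. In photosystem I, 4 of 5 fell, and psaI stood at -0.01. In the cytochrome b6f complex petA, petG and petN fell, and petB, petD and petL did not pass, at 0.21, 0.02 and -0.49. In photosystem II the psbE unit, psbK and psbH fell, while psbB, psbC, psbD, psbI, psbM, psbT and psbZ did not pass. Scaled on the other plastid protein-coding genes, which moved the median of all genes up by 1.18, no member was lower in Col at 26 d, against 5.61% of all genes, and 17 were higher, against 66.7%. Of these 17, 10 were photosystem II genes.

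psbN was the one member called higher with age in Col: 688, 678 and 851 CPM at 26 d, against 246, 309 and 555 CPM at 14 d (0.999 ± 0.33, edgeR adjusted p = 0.0335). The groups did not overlap. The call depended on the libraries: with each of the 12 libraries left out in turn the log2 fold change lay between 0.77 and 1.41 and the adjusted p between 0.00873 and 0.127, and 5 of the 12 fits, those without 1 of 5 Col libraries, left it above the threshold.

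In chlorella-1 the loss with age was deeper. Between 26 d and 14 d, 43 of the 44 genes were lower at 26 d, against 36.0% of all genes, and psbN, at 0.08 ± 0.33, did not pass. The median was -2.63, and that of all genes was -0.11. Of the 38 other plastid protein-coding genes, 37 were lower, with a median of -2.54. rbcL fell by 4.06 on the log2 scale (SE 0.28, edgeR adjusted p = 2.35e-07). The ATP synthase had a median of -3.61 (from -3.69 for atpH to -3.02 for atpI), and the NDH complex of -3.45 (from -3.93 for ndhF to -1.61 for ndhD). Photosystem I had a median of -2.15, the cytochrome b6f complex of -2.02 and photosystem II of -1.93. petB (-0.77 ± 0.17) and petD (-0.79 ± 0.18) were the members with the smallest losses that passed. Scaled on the other plastid genes, which moved the median of all genes up by 2.23, 22 members were called lower, against 7.44% of all genes, and 8 higher, against 74.6%, namely petB, petD, psaI, psbC, psbD, psbM, psbN and ndhD.

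**Figure D5:**
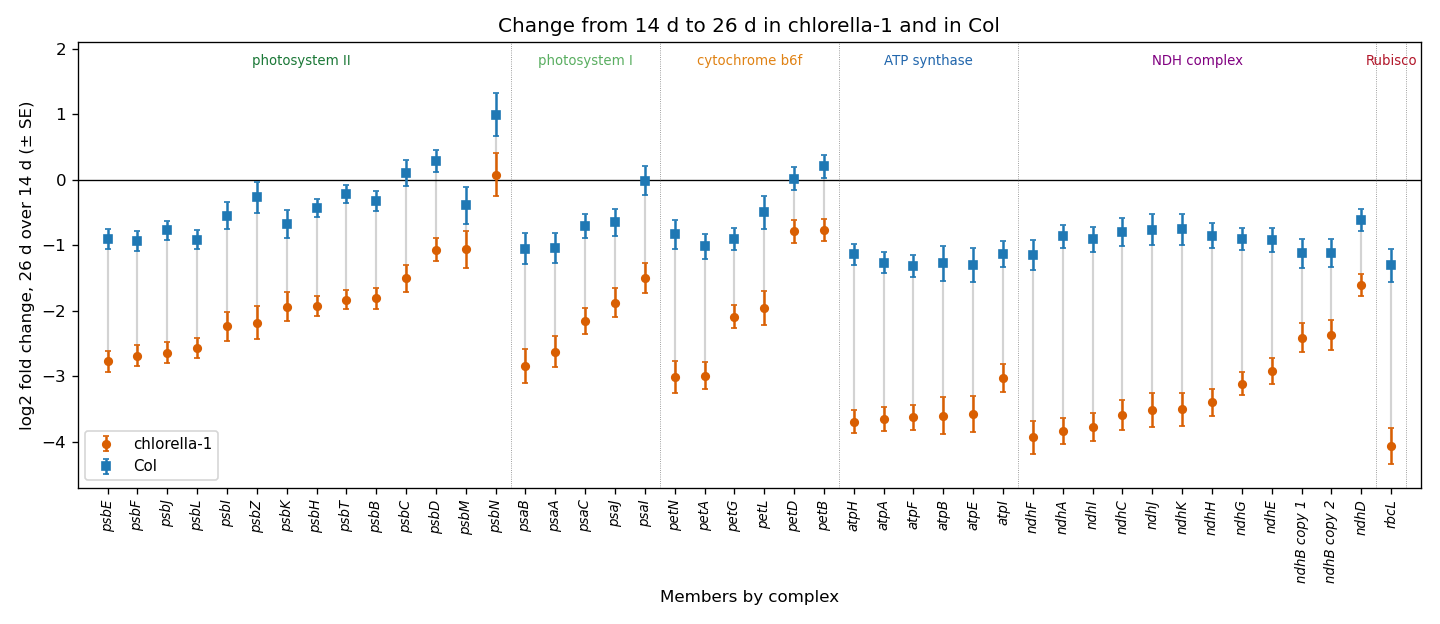
Log2 fold change of 26 d over 14 d (vertical axis, ± SE) for each member in chlorella-1 (orange circles) and Col (blue squares), ordered by complex. The chlorella-1 value is below the Col value for every member, with medians of -3.45 against -0.88 in the NDH complex and -3.61 against -1.27 in the ATP synthase; scaled on the other plastid genes 39 of the 44 Col values and 17 of the 44 chlorella-1 values would lie above 0.

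The genotype by age interaction tests the difference between the genotypes in their age change. It was lower for 42 of the 44 genes, against 21.0% of all genes, and higher for none in edgeR, DESeq2 and limma voom. Of the 20398 genes tested, edgeR called 4323 higher, DESeq2 5357 and limma voom 4631. The members' median was -1.77. For the 38 other plastid protein-coding genes the interaction was lower in 31, with a median of -1.36. Scaled on the other plastid genes, the interaction was lower for 22, against 4.27% of all genes, and higher for none, against 41.5%, with ndhD, petB and petD among the 5 members above 0. psbN (-0.92 ± 0.47, edgeR adjusted p = 0.134) and psbM (-0.68 ± 0.40, edgeR adjusted p = 0.192) did not pass. By complex the medians were -2.65 for the NDH complex, -2.32 for the ATP synthase, -1.62 for photosystem II, -1.48 for photosystem I and -1.32 for cytochrome b6f, and rbcL stood at -2.76 ± 0.36 (edgeR adjusted p = 0.000167).

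Relative to photosystem II, most of the members outside it were lower with age in both genotypes. In both, the ranges of the photosystem I, cytochrome b6f and NDH genes overlapped with that of the photosystem II genes. In chlorella-1, 24 of the 30 members outside photosystem II fell further with age than photosystem II, against 11.2% of all genes lower on that scale, and petB (0.81) and petD (0.78) fell less, against 64.3% of all genes higher. In Col, 20 of the 30 were lower relative to photosystem II, against 15.7% of all genes. None was higher or had an unadjusted p under 0.05 in that direction in edgeR. The share of all genes called higher in Col on that scale is not given here, so that absence has nothing to be read against. Set against the reads of photosystem I instead, in which 5 of the same 30 genes are themselves part of the sum, 13 were lower in chlorella-1, against 4.61% of all genes, and 7 higher, against 80.3%. In Col none was lower, against 5.53%, and 3 were higher, against 59.4%. Relative to photosystem II again, the ATP synthase genes were lower in all 6 cases in both genotypes, with a median of -2.03 in chlorella-1 and -1.16 in Col. The interaction relative to photosystem II was lower for 12 of the 30, against 2.29% of all genes, and higher for 1, against 52.5%. The 12 were 8 NDH genes (ndhA at -1.53, ndhI, ndhF, ndhC, ndhJ, ndhK, ndhH and ndhG), the ATP synthase genes atpA, atpF and atpH, and rbcL (-1.30 ± 0.38, edgeR adjusted p = 0.0107). The 1 higher was petD (0.65 ± 0.25, edgeR adjusted p = 0.0401, within a range of 0.0202 to 0.0902 over its alternatives), and it did not pass in 10 of the 12 fits that left out a library. Photosystem I genes lay between -0.30 and 0.21, and none passed in edgeR or had an unadjusted p under 0.05.

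The photosystem II genes themselves were not one block. On the same scale, and with the limit that each is part of the sum, psbE, psbF, psbL and psbJ were lower in chlorella-1 at 26 d (-0.66 to -0.42). psbM (0.73) and psbN (0.76) were higher, and the other 8 did not pass. Of all genes, 5.52% were lower and 59.3% higher on this scale. The psbN libraries were uneven in chlorella-1 at 26 d (356, 762 and 440 CPM). With age in chlorella-1 psbE, psbF, psbJ, psbL, psbI and psbZ fell further than the sum, against 11.2% of all genes lower. psbD (0.51) fell less, and psbN (1.64) was higher relative to the sum, against 64.3% of all genes higher. Scaled by TMM, psbN itself did not fall (0.08, not passed). With age in Col the values ran from -0.81 for psbF to 1.14 for psbN, with a median of -0.27. psbB, psbC and psbD held most of the reads of the sum in every group.

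The order of levels per kb of coding length changed with age and genotype. rbcL stood first in all groups, at 5551 ± 1236 CPM per kb in chlorella-1 at 26 d and 43318 ± 8360 in Col at 26 d. At 14 d it was at 92699 ± 5656 in chlorella-1 and 106734 ± 11214 in Col (SD, n = 3). In chlorella-1 at 26 d petB came second at 5088 ± 805 CPM per kb, within the spread of rbcL (4238 to 6691), and psbN and petD followed at 3934 ± 1624 and 3832 ± 807. In Col at 26 d petB was also second, at 8685 ± 457, far below the lowest rbcL library at 36643, and it overlapped with psbC at 7527 ± 1252, which overlapped with psbD at 6719 ± 906. At 14 d psbE and atpH followed rbcL, at 10339 ± 381 and 8916 ± 170 in chlorella-1, without overlap, and at 10746 ± 721 and 10005 ± 482 in Col, with overlap. ndhF had the lowest level in every group, with 15.4 ± 2.80 CPM per kb in chlorella-1 and 105 ± 31.4 in Col for the older leaves, and with 235 ± 10.6 in chlorella-1 and 231 ± 31.9 in Col for the younger ones. Levels of genes with an intron, such as petB, petD and ndhA, are per kb of coding sequence, and whether intron reads were counted is not given in the sources used here.

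The nuclear partners of these complexes gave their own losses at 26 d. They were taken from lists of 44 nuclear genes and 3 further plastid genes, chosen with earlier results of these data known. Of all genes tested, 31.8% were called lower at 26 d. All 12 nuclear photosystem I genes were lower in chlorella-1 at 26 d (median -2.76, from -3.30 for PSAN to -2.29 for PSAE-1), as were all 10 nuclear photosystem II genes (median -2.63, from -3.36 for PSBQA to -2.17 for PSBO2). Both cytochrome b6f genes were lower, PETC at -2.72 and AT2G26500 at -2.19, and so were the 3 ATP synthase genes (median -2.08, from -3.03 for ATPD to -2.05 for ATPC1). The 13 nuclear NDH genes were all lower (median -2.85, from -4.20 for PnsL1 to -1.08 for NdhS), and so were the 4 genes of the Rubisco small subunit (median -4.30, from -4.68 for RBCS3B to -2.93 for RBCS1A). For the photosystems and cytochrome b6f these medians are lower than the -1.45, -1.42 and -1.13 of the plastid genes, and for the ATP synthase the plastid genes have the lower median. These differences between nuclear and plastid lists were not tested. In the plastid, ycf3 and ycf4, which help assemble photosystem I, and ccsA, which attaches heme to cytochromes, were all lower as well (median -1.64, from -1.90 for ycf4 to -0.997 for ycf3).

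With age in Col, 12 of 12 nuclear photosystem I genes were lower, 8 of 10 of photosystem II, 1 of 2 of cytochrome b6f, 2 of 3 of the ATP synthase, 8 of 13 of the NDH complex and 4 of 4 Rubisco small subunits. Of all genes tested, 20.2% were called lower. For photosystem I the nuclear median was -1.21, beside -0.70 for the plastid genes, and for photosystem II it was -1.28, beside -0.41. For the NDH complex the nuclear median was -1.30, beside -0.88, and for the ATP synthase it was -1.34, beside -1.27. The Rubisco small subunits had a median of -2.75, beside -1.30 for rbcL. The differences between these lists were not tested.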

How the data were processed

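Reads of leaf RNA were counted per gene by the authors, and the deposited table holds whole-number counts for 12 libraries, per the file headers. Per the submitters' processing notes HISAT2, STAR, HTSeq, StringTie and DESeq2 were used with TAIR10; their roles and versions are not given in the sources used here, nor is the strand setting of counting. The 12 FPKM columns were not used. The 50 rows naming no gene, holding 0.0771% to 0.216% of reads, were left out.

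Counts were fitted with edgeR 4.0.16 in R 4.3.3: filterByExpr kept 20398 genes, library sizes were scaled by TMM, the quasi-likelihood model had 1 term per group over all 12 libraries, and p-values were adjusted by Benjamini-Hochberg over all genes tested, with a threshold of 0.05. "Relative to photosystem II" is the same fit with library size set to the reads of its 14 members. Errors of log2 fold changes are SE. DESeq2 1.42.0, limma 3.58.1 (voom), other scalings, no filter and leaving out each library were alternatives. Coordinates and sequences are from RefSeq's TAIR10.1 plastid record. Libraries of a group differed beyond sampling noise (chi-square per degree of freedom 12.4 or more).

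Values in every library are given, per complex, for the genes with the highest and the lowest log2 fold change at 26 d and the most reads per kb, for rbcL, and for any member not passing at 26 d; of other lists, the highest and lowest gene. The members and lists were chosen with earlier results of these data known, and transcription units after the values were seen.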

Additional observations from a re-analysis of the deposited data

Results flagged for a closer look

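The difference between chlorella-1 and Col was larger at 26 d than at 14 d by the test of the genotype by age interaction, in edgeR with adjustment over all genes. The interaction was lower for 42 of the 44 genes, against 21.0% of all genes. Relative to photosystem II it was lower for 12 of the 30 genes outside it, against 2.29% of all genes, and higher for 1, against 52.5%. Groups of 3 libraries were not tested for outlying samples.

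Among the genes with values in every library, the interaction was -2.76 for rbcL, -2.97 for ndhA, -2.01 for ndhE and -0.997 for ndhD. It was -2.55 for atpH and -1.90 for atpI in the ATP synthase, and -2.18 for petN, -0.97 for petB and -0.80 for petD in the cytochrome b6f complex. In the photosystems it was -1.79 for psaB, -1.48 for psaI, -1.87 for psbE and -1.87 for psbJ (log2 scale throughout). The petD value passed in 6 of the 12 fits that left out a library, with an edgeR adjusted p of 0.00135 to 0.0799.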

How the results depend on the processing

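Counts of members called stayed within 1.5 times the reported count in 327 alternatives and moved further in 33. The largest shift came from scaling on the other plastid genes: at 26 d 22 were lower and 3 higher in chlorella-1 (6.26% and 58.2% of all genes), with age 22 were lower and 8 higher in chlorella-1 (7.44% and 74.6%) and 0 lower and 17 higher in Col (5.61% and 66.7%), and 22 had a lower interaction (4.27%). All 23 values of named genes labelled reversed came from that scaling. At 26 d they were ndhD 0.34, petB 0.49, petD 0.55 and psbM 0.74. For age in Col they were atpH 0.025, atpI 0.040, ndhA 0.30, ndhD 0.55, ndhE 0.25, petN 0.33, psaB 0.15, psaI 1.15, psbE 0.27, psbJ 0.40 and psbM 0.77. For age in chlorella-1 they were ndhD 0.63, petB 1.46, petD 1.44, psaI 0.76 and psbM 1.18, and for the interaction ndhD 0.076, petB 0.075 and petD 0.24. Signs of named genes also changed in cases without that label. Among them were psaI with age in Col (11 alternatives, that scaling included), psbM at 14 d (2) and psbN with age in chlorella-1 (2). At 26 d psbN reached 0.76 in 1 alternative.

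With only the groups compared, 1 member was higher at 14 d, against 6.40% of all genes. In an alternative chosen after seeing the data, relative to photosystem II, 1 was lower at 14 d, against 11.2% of all genes, and 0 were higher at 26 d. DESeq2 size factors left 0 higher with age in Col. Set against photosystem I, 13 were lower and 7 higher with age in chlorella-1 (4.61% and 80.3% of all genes), 0 lower and 3 higher in Col (5.53% and 59.4%), and 0 had a higher interaction. Replicate numbers did not pair the libraries (correlations of same-numbered deviations -0.131 to 0.146), and a fit with a replicate block changed 1 count, to 0 genes with a higher interaction relative to photosystem II. Leaving out each library gave 0 to 1 higher with age in Col, 24 to 34 lower with age in Col, 1 to 2 higher at 26 d and 0 to 1 with a higher interaction relative to photosystem II. The cause was not tested.

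Of the log2 ratios of summed reads to photosystem II, 22 values moved by more than the replicate spread. Equal weights applied to the photosystem II genes as well, and leaving out overlapping genes took psbD and psbC out of its sum. With members weighted equally, photosystem I came to -0.35 with age in Col and -0.36 in chlorella-1, cytochrome b6f to 0.041 at 26 d, -0.15 with age in Col, -0.065 in chlorella-1 and 0.086 for the interaction, the ATP synthase to -1.69 and Rubisco to -2.22 with age in chlorella-1, and NDH to -0.74 for the interaction. With overlapping genes left out, photosystem I came to -0.58 with age in Col and -0.81 in chlorella-1, cytochrome b6f to 0.029 at 14 d and, with age, 0.38 in Col and 0.87 in chlorella-1, the ATP synthase to -0.80 and -1.65, NDH to -0.40 and -0.85, and Rubisco to -0.88 and -2.18. Leaving out each library gave interactions of -0.48 to -0.090 for photosystem I and -0.70 to -0.35 for NDH.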
